A study of Mus musculus with 12 samples.

Results

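Expression of 9 genes of the glucocorticoid pathway was measured in the cerebellum of sedentary and exercised mice, as 2 receptors (Nr3c1 and Nr3c2) and 7 response genes (Fkbp5, Sgk1, Tsc22d3, Zbtb16, Cdkn1a, Pdk4 and Errfi1). The genes were chosen by name from the 56941 genes of each count table, and all 9 passed the filter on low counts that left 20341 genes for testing. Coefficients of variation between mice were 9.61% for the receptor Nr3c1 and 4.10% for Nr3c2. Among the response genes they were 11.8% for Errfi1, 14.2% for Cdkn1a and 14.5% for Tsc22d3. Those of Sgk1, Fkbp5, Zbtb16 and Pdk4 lay between 24.0% and 34.5%. Fkbp5 read 8.21 to 11.9 CPM (read pairs of a gene per 1000000 assigned to genes) in WT sedentary mice and 12.2 to 21.8 CPM in SCA1 sedentary mice, which did not overlap. Such a lack of overlap was found for 1 of the 9 genes and for 11.4% of all genes tested in that comparison. No gene of the 9 was differentially expressed after adjustment over all genes in any comparison.

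Bulk RNA-seq was performed on cerebella of Atxn1 154Q/2Q knock-in mice (SCA1), which are heterozygous for an expanded CAG repeat in the mouse Atxn1 gene and model spinocerebellar ataxia type 1, and of wild-type (WT) C57BL/6J littermates. Each genotype was kept either without a running wheel (sedentary) or with free access to one from 4 to 16 weeks of age (exercise), and 3 mice were sequenced in each of the 4 groups. The expanded allele is knocked into the endogenous gene, so it is present in every cell of the animal and not only in the cerebellum. The study used male and female mice, and the labels do not give the sex of a mouse. Exercised mice were housed alone and sedentary mice in groups, so that running and housing cannot be told apart in these libraries. The authors chose group housing after they found no difference in behaviour from mice housed alone with a fixed wheel. All mice went through behavioural testing, anaesthesia and perfusion before the tissue was taken, and the wheels had been removed before that testing began. Plasma corticosterone and the time of day of tissue collection were not analysed here.

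Glucocorticoids (corticosterone in mice) are released by the adrenal gland in a daily rhythm and in response to stress and exertion. In the cell they bind the glucocorticoid receptor, encoded by Nr3c1, and with higher affinity the mineralocorticoid receptor, encoded by Nr3c2. The unbound receptor is held in the cytoplasm by heat shock protein chaperones, and the bound receptor enters the nucleus and activates genes next to a glucocorticoid response element, an inverted repeat of TGTTCT-like letters. Fkbp5, one of the best known of these genes, encodes a co-chaperone that lowers the receptor's affinity for hormone and thereby closes a feedback loop.

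The 12 libraries held between 20556802 and 32127508 read pairs assigned to genes on the sense strand. Libraries of SCA1 sedentary mouse 16 and SCA1 exercise mouse 55 stood apart, with 6.38% and 6.33% of read pairs mapping to several places against 2.08% to 3.46% in the other libraries. Summed oligodendrocyte markers were also highest in these mice, at 7008 and 5590 CPM against 2511 to 4227 CPM. The X-inactivation transcript Xist was high and chromosome Y genes near 0 in 4 libraries (WT exercise mouse 201, SCA1 sedentary mouse 194, SCA1 exercise mice 55 and 122), and the other 8 libraries, among them all 3 of WT sedentary mice, had the opposite pattern. The tissue label held: granule cell markers summed to 1636 to 3317 CPM and Purkinje cell markers to 4796 to 9014 CPM, whereas 5 forebrain markers summed to 5.29 to 7.45 CPM.

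Matches to the glucocorticoid response element near the start sites are shown first, because they mark which of the genes hold the receptor's recognition letters next to their promoters. A window of 5000 bp on either side of the canonical start site (GRCm39, GENCODE M39) was searched for GNACANNNTGTNC, an inverted repeat whose letters are the same on both strands, and for its full-length form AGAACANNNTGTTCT, which contains a match to the shorter letters. The shorter motif was found in 3 of the 9 genes and in 3154 of 20199 tested genes with a complete window (15.6%). The full-length form was found in 1 of the 9, Sgk1, and in 29 of the 20199 (0.144%). The 3 matches are given below on the strand of the gene, with the motif in capitals.
Sgk1: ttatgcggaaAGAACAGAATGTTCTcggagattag
Fkbp5: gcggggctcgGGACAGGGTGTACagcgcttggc
Cdkn1a: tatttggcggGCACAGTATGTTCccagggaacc
The Sgk1 sequence lies at chr10:21869590-21869624 (plus strand), at -958 bp from the canonical start and inside an intron of longer Sgk1 transcripts. The Fkbp5 sequence lies at chr17:28703917-28703949 (minus strand), in an intron 1219 bp downstream of the start. The Cdkn1a sequence lies at chr17:29313664-29313696 (plus strand), in an intron 942 bp downstream of the start, where the antisense gene Gm64878 is also annotated. Windows of the other 6 genes did not hold these letters. This says nothing about sites farther away, or about response elements inside the window whose letters differ from the motif. A match is a run of letters and not evidence of binding in this tissue.

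Levels were compared between genes as CPM per kilobase of annotated exon, where n = 12 mice and the spread is the SD. Nr3c1 had the highest level at 18.1 ± 1.74 CPM per kb, followed by Sgk1 at 15.4 ± 3.70 and Tsc22d3 at 14.5 ± 2.10. Nr3c2 (7.72 ± 0.317 CPM per kb), Errfi1 (6.09 ± 0.717) and Zbtb16 (4.87 ± 1.60) were intermediate. Pdk4 at 1.90 ± 0.655, Cdkn1a at 1.86 ± 0.263 and Fkbp5 at 1.34 ± 0.382 CPM per kb were the lowest. Only 2 steps in this order had ranges that did not overlap over the 12 mice, namely Tsc22d3 over Nr3c2 and Nr3c2 over Errfi1. The exon length covers all annotated isoforms, so a gene with long unused exons has a lower value per kb. In bulk tissue, fewer cells of a type and less RNA per cell cannot be told apart.

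**Figure D1:**
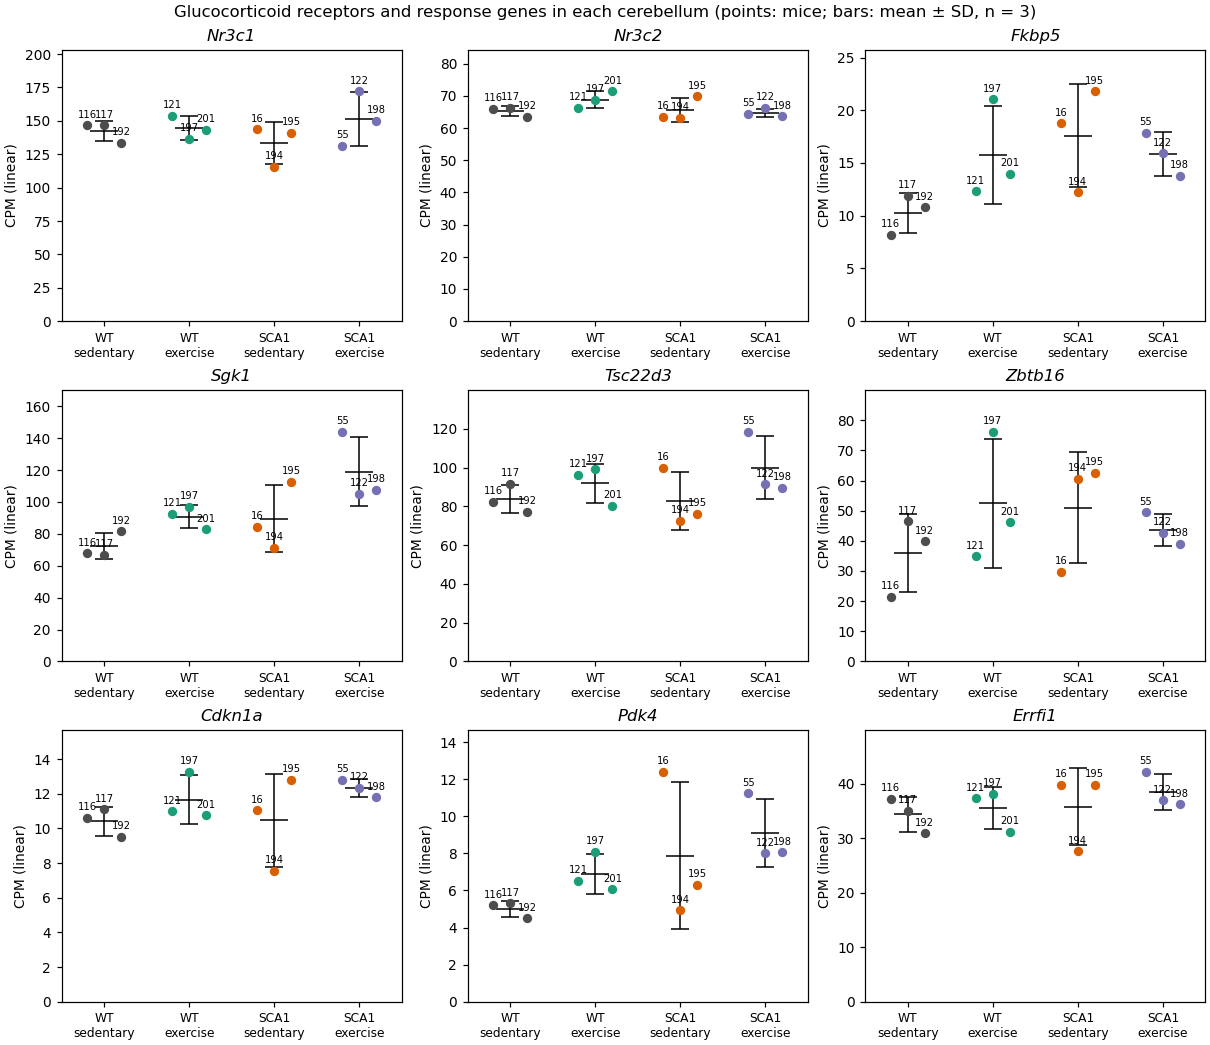
CPM (linear axis from 0) of each of the 9 genes in 12 cerebella, by group; points are mice with their library number, and bars give the mean and SD of 3 mice. Nr3c2 stays between 63.2 and 71.4 CPM, while Fkbp5 ranges from 8.21 to 21.8 CPM and all 3 WT sedentary mice lie below every other mouse.

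Nr3c1 (ENSMUSG00000024431, chr18:39543598-39652474, minus strand, GRCm39), the glucocorticoid receptor, read 147, 147 and 134 CPM in the 3 WT sedentary mice and 144, 115 and 141 CPM in SCA1 sedentary mice. It read 154, 136 and 143 CPM in WT exercise mice and 131, 172 and 150 CPM in SCA1 exercise mice. The lowest and the highest value were both in SCA1 mice (sedentary mouse 194 and exercise mouse 122), and all groups overlapped. Its log2FC was -0.095 in SCA1 sedentary versus WT sedentary mice (95% interval -0.35 to 0.16, p-adj = 0.818, edgeR) and 0.18 in SCA1 exercise versus SCA1 sedentary mice (-0.071 to 0.43, p-adj = 0.999, edgeR). Differences within these intervals were not excluded.

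Nr3c2 (ENSMUSG00000031618, chr8:77625576-77971863, plus strand), the mineralocorticoid receptor, was the steadiest of the 9 genes, with a coefficient of variation of 4.10% over 12 mice. It read 66.0, 66.3 and 63.4 CPM in WT sedentary mice, 66.3, 68.7 and 71.4 CPM in WT exercise mice, 63.5, 63.2 and 69.9 CPM in SCA1 sedentary mice and 64.4, 66.2 and 63.6 CPM in SCA1 exercise mice. WT exercise mice were thus just above WT sedentary and SCA1 exercise mice without overlap, by 1.05-fold and with a log2FC of -0.088 for SCA1 exercise versus WT exercise. Neither passed the test (p-adj = 0.958 and p-adj = 0.960, edgeR). For sedentary SCA1 against sedentary WT mice the 95% interval of its log2FC ran from -0.17 to 0.18.

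Fkbp5 (ENSMUSG00000024222, chr17:28618058-28737521, minus strand), the co-chaperone described above, read 8.21, 11.9 and 10.8 CPM in WT sedentary mice and 18.7, 12.2 and 21.8 CPM in SCA1 sedentary mice. It read 12.3, 21.0 and 14.0 CPM in WT exercise mice and 17.9, 15.9 and 13.8 CPM in SCA1 exercise mice. The 3 WT sedentary mice were the lowest of the 12, and the other 3 groups overlapped each other. Compared with WT sedentary mice, the log2FC was 0.77 in SCA1 sedentary mice (SE 0.25, 95% interval 0.24 to 1.31, unadjusted p = 0.00810, p-adj = 0.321, edgeR). In WT exercise mice it was 0.62 (0.084 to 1.15, unadjusted p = 0.0267, p-adj = 0.958, edgeR). An exact permutation test gave p = 0.1 for both, the smallest value that 3 against 3 mice allow. The log2FC was -0.15 (-0.68 to 0.38) when exercised SCA1 mice were compared with sedentary ones. These comparisons share groups, and the interaction of genotype with exercise was -0.77 (-1.52 to -0.017, unadjusted p = 0.0457, p-adj = 1.00, edgeR). Each of these values rested on few read pairs (260 to 531 per library), and leaving out 1 mouse moved the SCA1 sedentary value between 0.58 (without mouse 195) and 0.96 (without mouse 194). The WT exercise value was 0.35 without WT exercise mouse 197, and the interaction was -0.51 without the same mouse.

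Beside Fkbp5, summed choroid plexus markers (Ttr, Kl, Folr1, Aqp1, Kcnj13 and Clic6, all detected in every library) were 409, 147 and 13.8 CPM in WT sedentary mice and 1921, 821 and 1046 CPM in WT exercise mice. SCA1 sedentary mice 16, 194 and 195 had 812, 1168 and 14.9 CPM, and SCA1 exercise mice 55, 122 and 198 had 1606, 524 and 858 CPM. The WT sedentary mice, lowest in Fkbp5, had sums of 409 CPM or less, and all other mice but SCA1 sedentary mouse 195 had 524 CPM or more. Mouse 195, with the highest Fkbp5, had the second lowest choroid plexus sum of the 12. The part of these cells in the Fkbp5 values was not tested. Adding chromosome Y expression as a covariate gave a log2FC of 0.84 for SCA1 sedentary versus WT sedentary mice, the 8 libraries with chromosome Y expression alone gave 0.98, and leaving out mice 16 and 55 gave 0.74. With bands of library numbers (under 100, 100 to 150, over 150) as a covariate the value was 0.61. What these bands stand for is not stated in the labels.

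**Figure D2:**
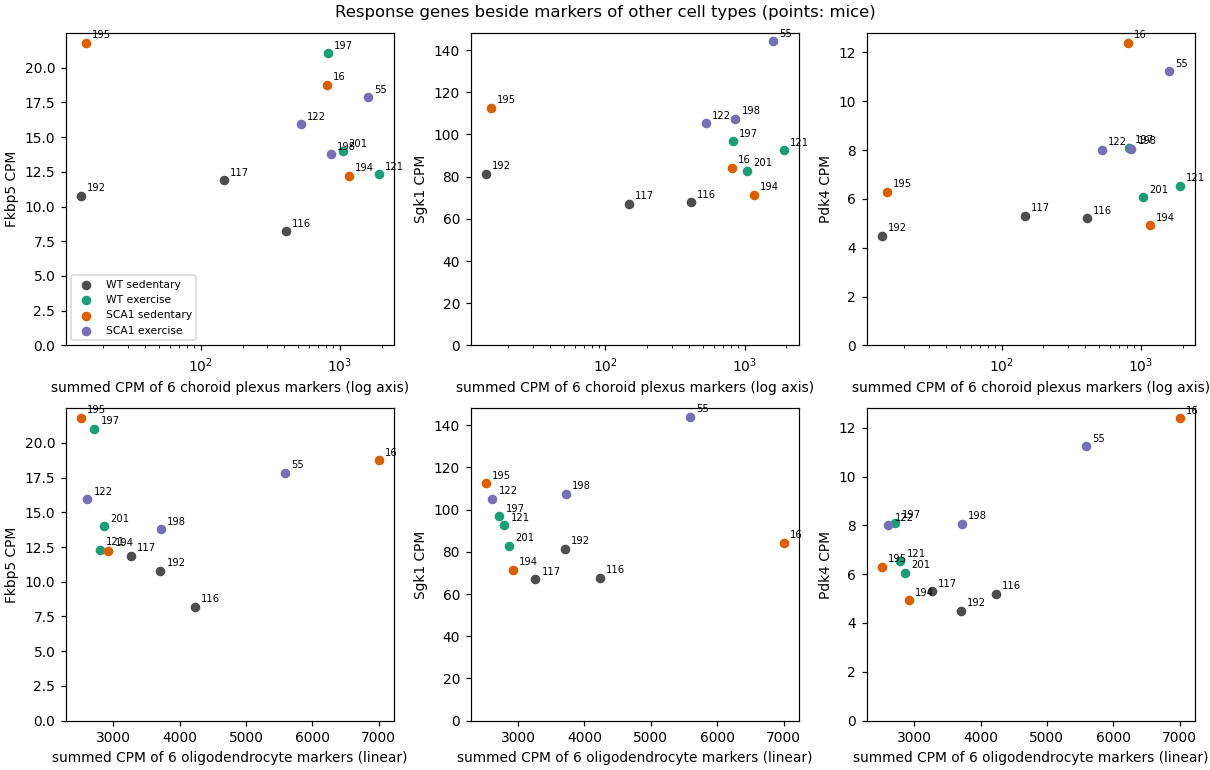
CPM of Fkbp5, Sgk1 and Pdk4 (linear axis from 0) in each of 12 mice against the summed CPM of 6 choroid plexus markers (upper row, log axis) and of 6 oligodendrocyte markers (lower row, linear axis), coloured by group. WT sedentary mice, the lowest in Fkbp5, have choroid plexus sums of 13.8 to 409 CPM. SCA1 sedentary mouse 195 combines 21.8 CPM of Fkbp5 with a choroid plexus sum of 14.9 CPM. The highest Pdk4 values are those of mice 16 and 55 at the right of the lower row.

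Sgk1 (ENSMUSG00000019970, chr10:21758083-21875802, plus strand), a kinase that regulates ion channels and transporters, had its highest group mean in SCA1 exercise mice. It read 67.8, 67.0 and 81.5 CPM in WT sedentary mice and 92.6, 96.8 and 82.8 CPM in WT exercise mice. SCA1 sedentary mice 16, 194 and 195 read 84.3, 71.4 and 112.5 CPM, and SCA1 exercise mice 55, 122 and 198 read 144, 105 and 108 CPM. WT exercise mice were above WT sedentary mice and below SCA1 exercise mice without overlap, whereas SCA1 sedentary mice overlapped every other group. Over both genotypes, the log2FC of exercise versus sedentary mice was 0.37 (SE 0.12, 95% interval 0.11 to 0.63, unadjusted p = 0.00859, p-adj = 0.945, edgeR), with an exact permutation p of 0.025 within genotypes. Over both activity groups, the log2FC of SCA1 versus WT mice was 0.35 (0.091 to 0.61, unadjusted p = 0.0121, p-adj = 0.368, edgeR), also with an exact permutation p of 0.025, where 0.005 is the smallest possible. That value was 0.24 without mouse 195 and 0.41 without mouse 194. In SCA1 sedentary versus WT sedentary mice it was 0.31 (-0.057 to 0.68, unadjusted p = 0.0908, p-adj = 0.567, edgeR), 0.10 without mouse 195 and 0.44 without mouse 194.

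Within SCA1 mice the Sgk1 log2FC of exercise was 0.41 (0.047 to 0.78, unadjusted p = 0.0301, p-adj = 0.999, edgeR), and within WT mice it was 0.33 (-0.035 to 0.70, unadjusted p = 0.0726, p-adj = 0.958, edgeR). The interaction was 0.082 (-0.44 to 0.60). The value in SCA1 mice moved with single libraries: it was 0.26 without exercise mouse 55, 0.28 without sedentary mouse 194, 0.62 without sedentary mouse 195 and 0.21 without mice 16 and 55. In SCA1 exercise versus WT exercise mice the log2FC was 0.39 (0.025 to 0.76, unadjusted p = 0.0380, p-adj = 0.960, edgeR) and 0.24 without mouse 55. The 8 libraries with chromosome Y expression, of which 1 was from an SCA1 exercise mouse, gave 0.26 for exercise over both genotypes and 0.12 within SCA1 mice.

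Pdk4 (ENSMUSG00000019577, chr6:5483097-5496339, minus strand), a kinase that restrains pyruvate dehydrogenase and so favours fatty acid use, had the widest relative spread of the 9 genes, with a coefficient of variation of 34.5%. It read 5.21, 5.30 and 4.49 CPM in WT sedentary mice and 6.53, 8.10 and 6.06 CPM in WT exercise mice, without overlap. SCA1 sedentary mice 16, 194 and 195 read 12.4, 4.93 and 6.30 CPM, and SCA1 exercise mice 55, 122 and 198 read 11.2, 8.01 and 8.06 CPM. The highest values were therefore in the 2 libraries with the most multimapping reads and the highest oligodendrocyte sums, and the part of either in Pdk4 was not tested. The log2FC of SCA1 sedentary versus WT sedentary mice was 0.66 (0.016 to 1.30, unadjusted p = 0.0455, p-adj = 0.485, edgeR), but 0.17 without mouse 16. Over both activity groups the SCA1 versus WT log2FC was 0.53 (0.077 to 0.98, unadjusted p = 0.0255, p-adj = 0.444, edgeR), with an exact permutation p of 0.045, and 0.21 without mice 16 and 55. In WT exercise versus WT sedentary mice the log2FC was 0.46 (-0.18 to 1.11, p-adj = 0.958, edgeR). Exercise over both genotypes gave 0.33 (-0.12 to 0.79, p-adj = 0.945, edgeR). That value was 0.58 without mouse 16 (unadjusted p = 0.00145, p-adj = 0.886, edgeR) and 0.22 without mouse 194. Within SCA1 mice the log2FC of exercise was 0.20 (-0.43 to 0.84, p-adj = 0.999, edgeR), 0.70 without mouse 16 and -0.030 without mouse 194.

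Zbtb16 (ENSMUSG00000066687, chr9:48563141-48748664, minus strand), a zinc finger transcription factor strongly induced by glucocorticoids in many cells, differed more within groups than between them. It read 21.5, 46.5 and 39.9 CPM in WT sedentary mice, 34.9, 76.2 and 46.1 CPM in WT exercise mice, 29.8, 60.6 and 62.5 CPM in SCA1 sedentary mice and 49.5, 42.6 and 39.1 CPM in SCA1 exercise mice. WT exercise mouse 197 was the highest and WT sedentary mouse 116 the lowest. All groups overlapped. The log2FC was 0.50 (-0.24 to 1.25) in SCA1 sedentary and 0.55 (-0.20 to 1.29) in WT exercise mice versus WT sedentary mice, with intervals wide enough to hold more than a doubling in either case. Single mice moved both: the first was 0.24 without WT sedentary mouse 116 and 0.78 without SCA1 sedentary mouse 16, and the second was 0.17 without WT exercise mouse 197 and 0.79 without WT sedentary mouse 117.

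Tsc22d3 (ENSMUSG00000031431, chrX:139440091-139501408, minus strand) encodes the leucine zipper protein GILZ, a mediator of anti-inflammatory glucocorticoid effects. It read 82.5, 91.7 and 77.1 CPM in WT sedentary mice, 96.4, 99.1 and 80.2 CPM in WT exercise mice, 100.03, 72.5 and 76.2 CPM in SCA1 sedentary mice and 119, 91.5 and 89.5 CPM in SCA1 exercise mice. Mice 16 and 55 again had the highest values of their groups. The log2FC of exercise over both genotypes was 0.20 (-0.028 to 0.43, p-adj = 0.945, edgeR), and that of SCA1 sedentary versus WT sedentary mice was -0.014 (-0.34 to 0.31). It is the only one of the 9 genes on a sex chromosome.

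Cdkn1a (ENSMUSG00000023067, chr17:29309936-29319701, plus strand), the cell cycle inhibitor p21, read 10.6, 11.1 and 9.51 CPM in WT sedentary mice, 10.996, 13.3 and 10.8 CPM in WT exercise mice, 11.1, 7.56 and 12.8 CPM in SCA1 sedentary mice and 12.8, 12.3 and 11.8 CPM in SCA1 exercise mice. Errfi1 (ENSMUSG00000028967, chr4:150938376-150955402, plus strand), an inhibitor of the EGF receptor, read 37.3, 35.0 and 30.9 CPM in WT sedentary mice, 37.4, 38.1 and 31.2 CPM in WT exercise mice, 39.8, 27.6 and 39.9 CPM in SCA1 sedentary mice and 42.2, 37.0 and 36.3 CPM in SCA1 exercise mice. For both genes SCA1 sedentary mouse 194 was the lowest of the 12, and the groups overlapped in each of the 4 pairwise comparisons. Their log2FC in SCA1 sedentary versus WT sedentary mice was 0.0082 (-0.39 to 0.40) for Cdkn1a and 0.055 (-0.27 to 0.38) for Errfi1. Cdkn1a is also a target of p53, so its level is not specific to glucocorticoids.

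**Figure D3:**
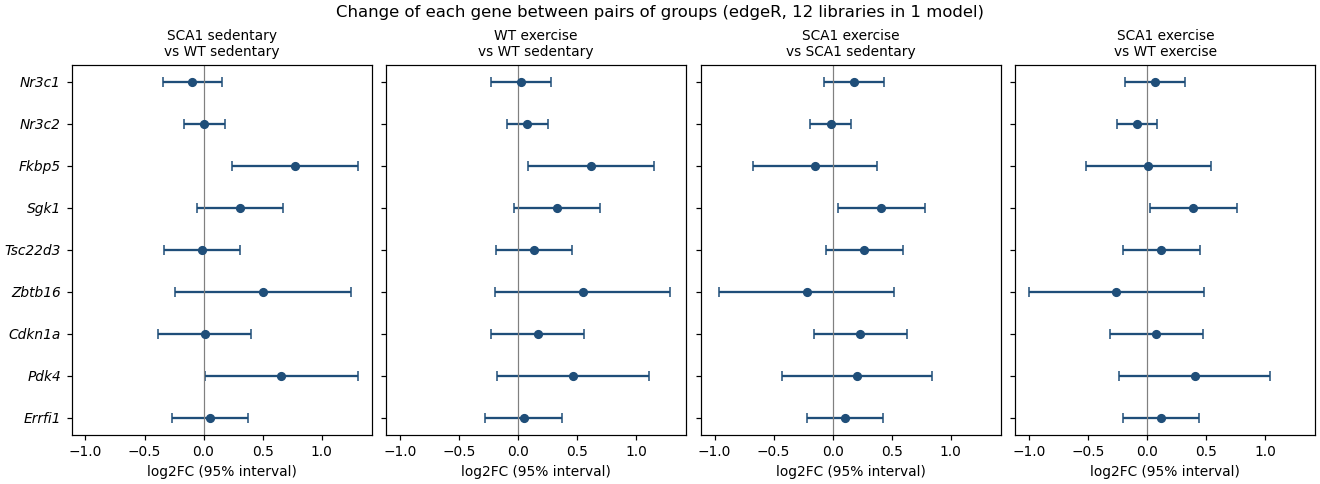
The log2FC of each of the 9 genes (points) with its 95% interval (bars) in the 4 pairwise comparisons, from edgeR fitted on 12 libraries; the grey line marks no difference. Intervals lie above 0 for Fkbp5 and Pdk4 in SCA1 sedentary versus WT sedentary mice, for Fkbp5 in WT exercise versus WT sedentary mice, and for Sgk1 in both comparisons with SCA1 exercise mice, and none of these passed adjustment over 20341 genes.

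Counts over the 9 genes were read against the same counts over all 20341 genes. A differentially expressed gene (DEG) was one with p-adj under 0.05 and an absolute log2FC over 0.5 in edgeR. In SCA1 sedentary versus WT sedentary mice 0 of the 9 genes were DEGs (0.0344% of all genes tested), and 2, Fkbp5 and Pdk4, had an unadjusted p under 0.05 (10.1%). In WT exercise versus WT sedentary mice 0 were DEGs (0% of all genes), 1, Fkbp5, had an unadjusted p under 0.05 (4.69%), and 4, Nr3c2, Fkbp5, Sgk1 and Pdk4, did not overlap between the groups (21.2%). In SCA1 exercise versus SCA1 sedentary mice 0 were DEGs (0%), Sgk1 alone had an unadjusted p under 0.05 (2.17%) and no gene was without overlap (4.5%). In SCA1 exercise versus WT exercise mice 0 were DEGs (0%), Sgk1 alone had an unadjusted p under 0.05 (2.93%), and 2, Nr3c2 and Sgk1, did not overlap (14.2%).

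Over both activity groups, SCA1 versus WT mice gave 0 DEGs among the 9 (0.118% of all genes), and 3 genes, Fkbp5, Sgk1 and Pdk4, had an unadjusted p under 0.05 (9.81%). Exercise over both genotypes gave 0 DEGs (0%) and 1 gene, Sgk1, with an unadjusted p under 0.05 (3.54%). For the interaction there were 0 DEGs (0%) and 1 gene, Fkbp5, with an unadjusted p under 0.05 (3.78%). DESeq2 also called 0 of the 9 in all 7 comparisons, with 2, 1, 1, 1, 3, 1 and 1 genes at an unadjusted p under 0.05 in the same order. Over all genes, the DESeq2 counts at an unadjusted p under 0.05 were 2251, 1110, 493, 682, 2278, 835 and 900. These counts are over all genes with a p from DESeq2, so their shares were not computed here. Of those genes, between 19302 and 35116 also had an adjusted p, depending on the comparison.

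Most of the 7 response genes had positive log2FC values relative to WT sedentary mice, and no value passed adjustment. In SCA1 sedentary mice 6 of 7 had a positive log2FC (median 0.31, against 0.016 for all genes tested), with Tsc22d3 the exception and Cdkn1a so close to 0 that it was -0.0065 when all genes with at least 1 count were kept. In WT exercise mice 7 of 7 were positive (median 0.33, against 1.7e-05). These 2 comparisons share the WT sedentary mice, which had the lowest mean of Fkbp5, Sgk1, Zbtb16, Cdkn1a, Pdk4 and Errfi1. In SCA1 exercise versus SCA1 sedentary mice 5 of 7 were positive (median 0.20, against -0.010), and in SCA1 exercise versus WT exercise mice 6 of 7 (median 0.12, against 0.0036). The sign of Tsc22d3 and of several small values depended on the libraries used.

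Markers of other cells also differed in sign or size in the same comparisons. In SCA1 sedentary versus WT sedentary mice 7 of 7 Purkinje cell markers were lower (median log2FC -0.74, with 7 at an unadjusted p under 0.05 and Calb1 a DEG), as were 6 of 6 granule cell markers (median -0.45), and the Purkinje cell sums were 4796 to 6416 CPM against 7943 to 9014 CPM. Choroid plexus markers were higher for 6 of 6 in SCA1 sedentary and in WT exercise mice (medians 2.04 and 2.88, with 3 and 5 at an unadjusted p under 0.05). Meningeal markers were higher for 5 of 6 in both (medians 0.49 and 0.49, with 2 and 3 at an unadjusted p under 0.05), with sums of 52.6 to 95.8 CPM in WT sedentary, 73.8 to 128.6 CPM in SCA1 sedentary and 74.5 to 97.0 CPM in WT exercise mice. The part of these cells in the response genes was not tested.

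The mean log2 deviation of the 7 response genes from their 12-mouse means was -0.39, -0.14 and -0.27 in WT sedentary mice 116, 117 and 192. It was -0.058, 0.31 and -0.093 in WT exercise mice 121, 197 and 201. SCA1 sedentary mice 16, 194 and 195 had 0.13, -0.25 and 0.21, and SCA1 exercise mice 55, 122 and 198 had 0.39, 0.11 and 0.054. All 3 SCA1 exercise mice were above 0 and all 3 WT sedentary mice below it, whereas the other 2 groups held mice on both sides. Mouse 197 and mouse 55 had all 7 genes above the mean and mouse 192 had none.

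Covariation from mouse to mouse was examined for the 36 pairs of the 9 genes on log2 CPM (n = 12 mice). Of these, 29 had a positive Pearson r. Response genes paired with each other had a median r of 0.61 over 21 pairs, of which 18 were positive. Receptors paired with response genes had a median r of 0.18 over 14 pairs, of which 10 were positive. Such medians were not computed for pairs of other tested genes, so whether 0.61 is high for these libraries was not tested. After adjustment over the 36 pairs, 2 passed. Cdkn1a with Errfi1 had r = 0.85 (permutation p = 0.000530, p-adj = 0.0191) and Spearman rho = 0.72 (permutation p-adj = 0.0470). The r of this pair was 0.75 without the 2 mice farthest from the median of Cdkn1a. Tsc22d3 with Pdk4 had r = 0.80 (permutation p = 0.00165, p-adj = 0.0297) and rho = 0.80 (permutation p-adj = 0.0430). The r of this pair was 0.69 without the 2 mice farthest from the median of Tsc22d3, which kept mouse 16, the highest in Pdk4.

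With group means removed, both correlations were of similar size (0.88 and 0.89) but neither passed adjustment (permutation p-adj = 0.0694 and 0.0556). Without mice 16 and 55, and also with unstranded counts, 1 pair passed. By Spearman's rho 8 pairs passed, among them Fkbp5 with Sgk1 (rho = 0.76, r = 0.67) and Fkbp5 with Pdk4 (rho = 0.75, r = 0.67). Nr3c1 with Fkbp5 had r = -0.0042 (permutation p = 0.990), and the receptors had r = 0.24 with each other. The most negative pair was Nr3c1 with Zbtb16 (r = -0.42, permutation p-adj = 0.323).

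**Figure D4:**
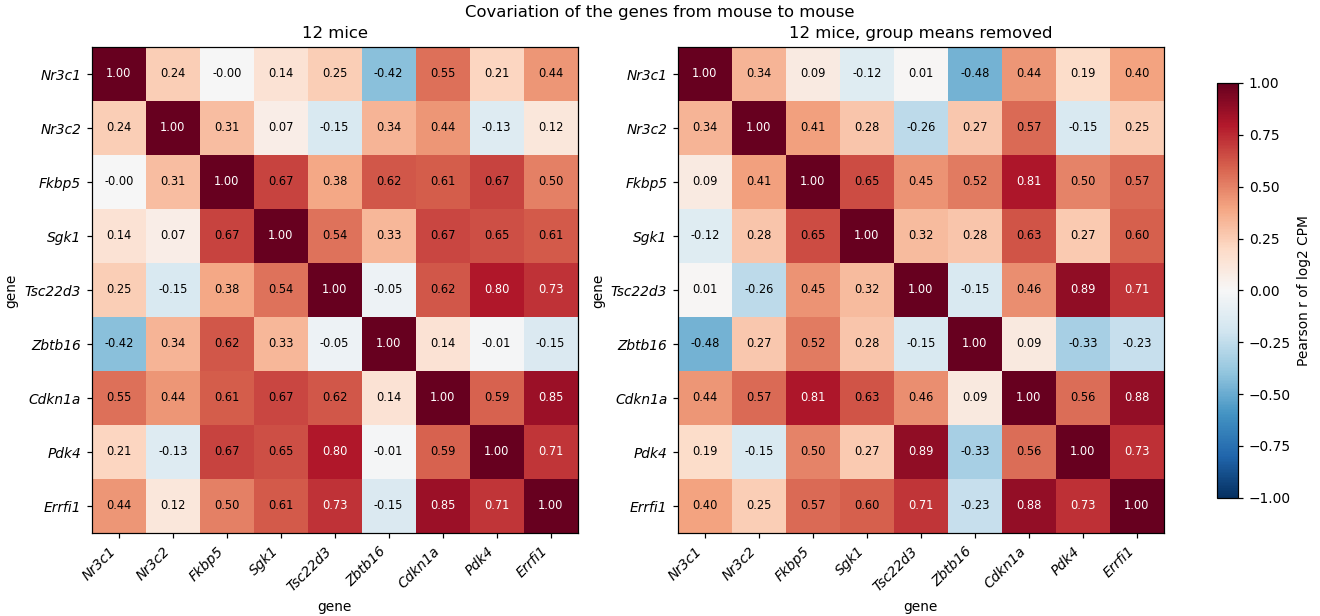
Pearson r of log2 CPM for each pair of the 9 genes over 12 mice (left) and after the mean of each group was removed (right), on a colour scale from -1 to 1. Cdkn1a with Errfi1 (0.85) and Tsc22d3 with Pdk4 (0.80) are the highest pairs, and Nr3c1 with Zbtb16 (-0.42) is the lowest on the left.

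Other genes of the pathway were described from lists, and 0 of their tested genes were DEGs by edgeR in any of the 7 comparisons. Of 10 receptor chaperones, the proteins that hold the receptor ready for hormone, 0 of 10 were positive in WT exercise versus WT sedentary mice (median log2FC -0.17) and 10 of 10 in SCA1 exercise versus WT exercise mice (median 0.17), which share the WT exercise mice. In SCA1 sedentary versus WT sedentary and in SCA1 exercise versus SCA1 sedentary mice 5 of 10 were positive (medians 0.014 and -0.0020), and no chaperone had an unadjusted p under 0.05 in the pairwise comparisons. Oligodendrocyte, microglia and erythrocyte markers had the same signs in the comparisons that share the WT exercise mice. In WT exercise versus WT sedentary mice 0 of 6, 0 of 6 and 0 of 5 were positive (medians -0.45, -0.21 and -0.79). In SCA1 exercise versus WT exercise mice 6 of 6, 6 of 6 and 5 of 5 were positive (medians 0.53, 0.24 and 1.20). In SCA1 sedentary versus WT sedentary mice 6 of 6, 4 of 6 and 5 of 5 were positive (medians 0.10, 0.020 and 0.22). For SCA1 exercise versus SCA1 sedentary mice the counts were 2 of 6, 2 of 6 and 4 of 5 (medians -0.082, -0.029 and 0.17). The part of these cells in the chaperone values was not tested. The chaperones with the smallest p were Ppid, with a log2FC of -0.21 in SCA1 sedentary versus WT sedentary mice (p-adj = 0.525, edgeR), Dnajb1, with 0.35 in SCA1 exercise versus WT exercise mice (p-adj = 0.960, edgeR), and Fkbp4, the co-chaperone that competes with Fkbp5, with -0.24 in WT exercise versus WT sedentary mice (p-adj = 0.958, edgeR). Fkbp4 read 139 to 165 CPM in WT sedentary mice and 124 to 129 CPM in WT exercise mice. Coregulators, which link the receptor to chromatin, had a median log2FC of 0.093 in WT exercise versus WT sedentary and -0.096 in SCA1 exercise versus WT exercise mice, and -0.021 and 0.060 in SCA1 sedentary versus WT sedentary and SCA1 exercise versus SCA1 sedentary mice. The Mediator subunit gene Med1 had a log2FC of -0.20 (p-adj = 0.532, edgeR) and the coactivator gene Ncoa1 of -0.16 (p-adj = 0.606, edgeR) in SCA1 sedentary versus WT sedentary mice.

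Genes that set how much steroid reaches the receptor were tested for 3 of 5. Hsd11b1, which regenerates active corticosterone, read 23.7 to 27.6 CPM in WT exercise mice and 30.3 to 36.2 CPM in SCA1 exercise mice without overlap, with a log2FC of 0.39 (unadjusted p = 0.0195, p-adj = 0.960, edgeR). WT sedentary mice spanned 26.3 to 38.0 CPM. The drug efflux pump gene Abcb1a had a log2FC of 0.16 in WT exercise versus WT sedentary mice and H6pd, which supplies Hsd11b1 with its cofactor, of -0.19 in SCA1 sedentary versus WT sedentary mice. Hsd11b2, which inactivates corticosterone, had 0 to 4 read pairs per library, and the carrier gene Serpina6 had 0 in all libraries. A count of 0 allows up to 3 read pairs per library, for counting error only.

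In the corticotropin-releasing hormone system 3 of 7 genes were tested. The receptor gene Crhr1 read 73.4 to 102.4 CPM in WT sedentary mice and 41.3 to 81.1 CPM in SCA1 sedentary mice, with a log2FC of -0.50 (unadjusted p = 0.0271, p-adj = 0.432, edgeR). Its lowest value was in mouse 16, which also had the lowest granule cell and Purkinje cell sums; the part of these cells was not tested. Crhr2 read 0.0855 to 0.717 CPM in WT sedentary mice and 1.17 to 2.50 CPM in WT exercise mice (log2FC 2.07, unadjusted p = 0.0329, p-adj = 0.958, edgeR), the groups in which the choroid plexus sums given above also did not overlap. The precursor gene Pomc had a log2FC of -1.16 in SCA1 exercise versus SCA1 sedentary mice (p-adj = 0.999, edgeR). Crh had 0 to 31 read pairs per library, Crhbp 0 to 63, Ucn 0 to 3 and Mc2r 0.

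Of 22 further glucocorticoid-responsive genes, 21 were tested, and Lcn2 was not (0 to 22 read pairs). Positive values were found for 14, 15, 17 and 12 of 21 in SCA1 sedentary versus WT sedentary, WT exercise versus WT sedentary, SCA1 exercise versus SCA1 sedentary, and SCA1 exercise versus WT exercise mice, with median log2FC of 0.20, 0.13, 0.21 and 0.073. An unadjusted p under 0.05 was found in the same order for 3, 2, 1 and 2 of 21, against 10.1%, 4.69%, 2.17% and 2.93% of all genes tested. The 3 in SCA1 sedentary versus WT sedentary mice were all negative, namely the metal-binding protein genes Mt1 (-0.48) and Mt2 (-0.54) and the glycerol phosphate dehydrogenase gene Gpd1 (-0.23), named after their values were seen, while the 2, 1 and 2 in the other comparisons were positive. Ddit4, an inhibitor of mTORC1, read 25.2 to 26.9 CPM in WT exercise mice and 30.7 to 50.7 CPM in SCA1 exercise mice without overlap (log2FC 0.57, unadjusted p = 0.0110, p-adj = 0.960, edgeR). Mt2 had a log2FC of 0.61 in SCA1 exercise versus SCA1 sedentary mice, with 43.7 to 89.7 CPM against 36.8 to 49.1 CPM. The sulfotransferase gene Sult1a1 read 3.41 to 4.10 CPM in WT sedentary mice and 5.26 to 5.88 CPM in WT exercise mice without overlap (log2FC 0.59, p-adj = 0.958, edgeR).

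The genes most like Nr3c1, Nr3c2, Fkbp5 and Sgk1 from mouse to mouse were named by the highest Pearson r over 12 mice among all tested genes, as a description. Nr3c1 was most like Lcorl (0.94), Chordc1 (0.92) and Pds5b (0.92). Nr3c2 was most like A730017L22Rik (0.95), Gm37776 (0.90) and Gm44680 (0.89). Fkbp5 was most like Ccn2 (0.93), Myzap (0.90) and Tekt4 (0.89), of which Tekt4 had a median of 0.489 CPM. Sgk1 was most like Txnip (0.89), Lmln (0.89) and Arid5b (0.87), and Txnip is itself one of the 22 further responsive genes. With group means removed Txnip had r = 0.79 with Sgk1.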

How the data were processed

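RNA was extracted from cerebella of 12 mice, ribosomal RNA was depleted and directional libraries were sequenced as 151 bp read pairs. According to the labels and methods, the authors trimmed reads with fastp 0.24.0, aligned them to GRCm39 with STAR 2.7.10a and deposited STAR's raw counts for every gene in 3 forms, ignoring strand and for either strand. The reverse-strand counts were used here, since forward counts were only 5.54% to 6.01% of the pairs assigned to either strand. The RNA of 2 libraries was of lower integrity, and these were fragmented and amplified differently by the authors. Their identity was not used here. Of 56941 gene identifiers, 56323 were matched to GENCODE M39 and 618 were not.

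Groups were taken from the labels. Counts were normalised by TMM and tested with the quasi-likelihood test of edgeR 4.0.16 (R 4.3.3) in 1 model of 4 groups, after filterByExpr, with Benjamini-Hochberg adjustment over 20341 genes (p-adj). CPM are TMM-scaled. Thresholds were p-adj under 0.05 and absolute log2FC over 0.5, those of the study. Intervals are 95% intervals from the model. Single genes were also tested by two-sided exact permutation, and correlations by 100000 two-sided permutations. The 9 genes and the pathway lists were chosen with earlier results of these data known. All 9 genes are named, and from each pathway list up to 3 genes with the smallest unadjusted p over the pairwise comparisons. More than 3 of the further responsive genes were named, some of them after their values were seen. A result of the coregulator list is not reported here. The fitting script was tested on simulated data. Alternatives were DESeq2 1.42.0, RLE size factors, no filter beyond 1 count, unstranded counts, 2-group fits, covariates for chromosome Y expression and for bands of library numbers, no limit on the log2FC, and omission of mice 16 and 55 or of each mouse. The libraries with chromosome Y expression alone were added after the data were seen. Depth ranged from 20556802 to 32127508 assigned read pairs.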

Additional observations from a re-analysis of the deposited data

How the results depend on the processing

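With 3 mice per group and a spread shared by 12 libraries, 0 of the 63 log2FC values (9 genes in 7 comparisons) passed the thresholds under any alternative, and 33 kept their sign throughout. All values that changed sign had an absolute log2FC of at most 0.26. The smallest p-adj of Fkbp5 in SCA1 sedentary versus WT sedentary mice was 0.105 (DESeq2), in a range of 0.105 to 0.867. The number of all genes called in that comparison moved from 7 to 203 with DESeq2, 76 with genes of at least 1 count, 205 without mice 16 and 55 and 0 in a 2-group fit. In WT exercise versus WT sedentary mice it moved from 0 to 63 with DESeq2 and 150 in a 2-group fit, and in SCA1 versus WT over both activity groups from 24 to 177 with DESeq2; the cause was not tested. The fewest read pairs per library were those of Pdk4 (116), Cdkn1a (178) and Fkbp5 (260). No paired analysis was possible because the groups share no replicate number. The number of correlated pairs, 2, was 1 without mice 16 and 55, 1 with unstranded counts and 0 with group means removed.

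With bands of library numbers as a covariate, the log2FC changed sign to 0.034 for Nr3c1 and -0.0039 for Cdkn1a in SCA1 sedentary versus WT sedentary mice, to 0.013 for Zbtb16 in SCA1 exercise versus SCA1 sedentary mice, to -0.038 for Fkbp5 and -0.036 for Tsc22d3 in SCA1 exercise versus WT exercise mice, to 0.050 for Nr3c1 and -0.068 for Tsc22d3 in SCA1 versus WT over both activity groups, to -0.024 for Errfi1 in the interaction. With chromosome Y expression as a covariate, the log2FC changed sign to 0.023 for Tsc22d3 in SCA1 sedentary versus WT sedentary mice, to 0.018 for Nr3c1 in SCA1 versus WT over both activity groups. With genes of at least 1 count, the log2FC changed sign to -0.0049 for Nr3c2 and -0.0065 for Cdkn1a in SCA1 sedentary versus WT sedentary mice. With unstranded counts, the log2FC changed sign to -0.0063 for Nr3c2 in SCA1 sedentary versus WT sedentary mice, to -0.0025 for Nr3c1 in WT exercise versus WT sedentary mice. Without mice 16 and 55, the log2FC changed sign to -0.018 for Cdkn1a and -0.013 for Errfi1 in SCA1 sedentary versus WT sedentary mice, to -0.078 for Fkbp5 and -0.013 for Tsc22d3 in SCA1 exercise versus WT exercise mice, to 0.017 for Nr3c1 and -0.084 for Tsc22d3 in SCA1 versus WT over both activity groups, to -0.021 for Zbtb16 in exercise over both genotypes, to -0.13 for Sgk1 and 0.046 for Pdk4 in the interaction. In the libraries with chromosome Y expression alone, of which 1 was from an SCA1 exercise mouse assumed to vary like the others, the log2FC changed sign to 0.070 for Tsc22d3 in SCA1 sedentary versus WT sedentary mice, to -0.022 for Cdkn1a, -0.22 for Pdk4 and -0.14 for Errfi1 in SCA1 exercise versus SCA1 sedentary mice, to -0.29 for Fkbp5, -0.15 for Tsc22d3, -0.060 for Cdkn1a and -0.077 for Errfi1 in SCA1 exercise versus WT exercise mice, to 0.013 for Nr3c1, -0.038 for Tsc22d3 and -0.083 for Zbtb16 in SCA1 versus WT over both activity groups, to -0.0062 for Nr3c2 in exercise over both genotypes, to -0.28 for Sgk1, -0.22 for Tsc22d3, -0.25 for Cdkn1a and -0.29 for Errfi1 in the interaction.

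When 1 mouse was left out at a time, 23 values changed sign at least once. Their ranges were -0.052 to 0.028 for Nr3c2, -0.17 to 0.062 for Tsc22d3, -0.17 to 0.18 for Cdkn1a and -0.043 to 0.20 for Errfi1 in SCA1 sedentary versus WT sedentary mice. They were -0.023 to 0.063 for Nr3c1 and -0.026 to 0.14 for Errfi1 in WT exercise versus WT sedentary mice. They were -0.055 to 0.037 for Nr3c2, -0.34 to 0.040 for Fkbp5, -0.030 to 0.70 for Pdk4 and -0.039 to 0.20 for Errfi1 in SCA1 exercise versus SCA1 sedentary mice. They were -0.062 to 0.17 for Nr3c1, -0.15 to 0.26 for Fkbp5, -0.013 to 0.18 for Tsc22d3 and -0.50 to 0.10 for Zbtb16 in SCA1 exercise versus WT exercise mice. They were -0.079 to 0.037 for Nr3c1, -0.026 to 0.087 for Tsc22d3, -0.017 to 0.31 for Zbtb16 and -0.052 to 0.13 for Cdkn1a in SCA1 versus WT over both activity groups. They were -0.031 to 0.28 for Zbtb16 in exercise over both genotypes. They were -0.075 to 0.28 for Sgk1, -0.11 to 0.24 for Cdkn1a, -0.49 to 0.24 for Pdk4 and -0.086 to 0.15 for Errfi1 in the interaction.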

Other observations

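Immediate early genes, which neurons switch on within minutes of activity, were followed in the same libraries. Fos read 2.11 to 5.64 CPM in WT sedentary mice, 2.30 to 15.7 CPM in WT exercise mice and 3.002 to 7.07 CPM in SCA1 exercise mice, but 45.9, 15.5 and 2.55 CPM in SCA1 sedentary mice 16, 194 and 195. Its log2FC was 2.44 in SCA1 sedentary versus WT sedentary mice (unadjusted p = 0.0153, p-adj = 0.374, edgeR), with overlap between the groups. Npas4 read 6.57, 6.46 and 2.17 CPM in the same SCA1 sedentary mice and 0.789 to 2.73 CPM in WT sedentary mice (p-adj = 0.392, edgeR). Junb read 15.1, 7.81 and 5.44 CPM in SCA1 sedentary mice 16, 194 and 195, and its log2FC was -0.87 in SCA1 exercise versus SCA1 sedentary mice (unadjusted p = 0.0178, p-adj = 0.999, edgeR). Of the 8 genes of this kind, 0 were differentially expressed in any comparison, and all 8 had a negative log2FC in SCA1 exercise versus SCA1 sedentary mice (4 with an unadjusted p under 0.05, against 2.17% of all genes tested). In SCA1 sedentary versus WT sedentary mice 5 of 8 were positive, 3 of them with an unadjusted p under 0.05, against 10.1% of all genes. Mouse 194 had the lowest Cdkn1a and Errfi1 of the 12 mice, and mouse 195, with the lowest Fos of its group, the highest Fkbp5. Mouse 16, with the highest Fos of its group, read 18.7 CPM of Fkbp5, against 12.2 CPM in mouse 194.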
